A study of Mus musculus with 8 samples.

Results

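DNA replication and G1/S genes are the genes that carry a cell from growth factor stimulation into the synthesis of new DNA. The members were the genes of the count tables whose symbol was on a list of 59 for origin licensing, polymerases, nucleotide supply, and G1/S regulation. All 59 were present among the 18533 gene symbols of the series, and all 59 passed the filter on low counts that kept 13535 genes for testing. They were measured by RNA-Seq in mouse aortic smooth muscle cells (MASMCs), primary cells grown from aortas after removal of adventitia and endothelium. Cells came from WT mice (n = 4 samples) and from *Hint1*-/- mice (n = 4 samples), and the study's methods describe the animals as males of 4 to 6 weeks. Every sample of both genotypes received the growth factor PDGF-BB at 20 ng/mL for 24 hours, so unstimulated cells were not among the samples. The study used these cells to ask which transcripts depend on HINT1 while smooth muscle cells change phenotype under PDGF-BB.

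In a resting cell the retinoblastoma protein holds E2F transcription factors inactive. Mitogens such as PDGF-BB raise D-type cyclins, which activate CDK4 and CDK6, and cyclin E with CDK2 then completes the release of E2F, whose targets include the MCM helicase, polymerase, and nucleotide synthesis genes. CDK inhibitors of the INK4 and CIP/KIP families restrain these kinases, and proliferation of medial smooth muscle cells under PDGF-BB runs through the same steps.

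*Hint1*, on chromosome 11 from 54866383 to 54870501 of mm10, was at 109, 111, 113, and 110.2 CPM in WT replicates 1, 2, 3, and 4 and 34.4, 36.15, 37.4, and 34.4 CPM in *Hint1*-/- replicates 1, 2, 3, and 4. All 4 *Hint1*-/- samples lay below all 4 WT samples, and none was near 0. In edgeR's quasi-likelihood test with Benjamini-Hochberg adjustment, *Hint1*-/- over WT was at a log2 ratio of −1.64 (adjusted p = 6.77e-16, SE 0.0374), with means of 111 ± 1.72 CPM in WT and 35.6 ± 1.46 CPM in *Hint1*-/- MASMCs (SD, n = 4 each). CPM values are counts scaled by library size and edgeR's TMM factors. Library totals lay between 20778077 and 20888041 counts, so depth differed little. A member had a mean of 118.5 counts (*Gins1* and *Ung*) to 12650 counts (*Ccnd1*) per sample. The labels do not say whether the 4 samples of a genotype came from separate cultures or animals, so p-values measure the spread between these samples, which may be technical.

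Of the 59 members, 7 were lower and 3 were higher in *Hint1*-/- MASMCs at an adjusted p under 0.05. Over all 13535 genes tested, 10.2% were lower and 11.2% were higher by the same rule, and among the members the shares were 11.9% and 5.08%. The share of lower members was close to that background, so it is not a result about the members as a list. Of the 17 G1/S regulators (cyclins, kinases, E2F factors, *Rb1*, and inhibitors) 41.2% passed in either direction. Of the 42 DNA synthesis members 7.14% passed, against 21.5% of all genes tested. No test of that difference was made. The lower members, with mm10 positions, were *Ccnd1* (chr7:144929931-144939925), *Cdk6* (chr5:3341485-3531008), *Ccne1* (chr7:38097984-38107534), *Cdk4* (chr10:127063534-127067920), *Pcna* (chr2:132249162-132253314), *Ung* (chr5:114130386-114139323), and *Mcm2* (chr6:88883474-88898780). The higher ones were *Cdkn2a* (chr4:89274471-89294653), *Cdkn2c* (chr4:109660876-109667189), and *Cdkn1b* (chr6:134920401-134925513). Without WT replicate 3 the lower members numbered 4, and offsets that take out length and GC trends gave 9 lower and 2 higher. No member passed an adjusted p under 0.05 with a fold change over 1.5 in edgeR, DESeq2, or limma-voom, or in edgeR at an unadjusted p under 0.05, against 2.83% of all genes tested in edgeR at the adjusted p.

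The median log2 fold change was −0.041 over the 59 members and 0.0003 over all genes tested, and 43 of 59 members (72.9%) had an estimate below 0, compared with 49.9% of all genes tested. Standard errors of the log2 fold change ranged from 0.0314 to 0.0978. The 95% confidence interval lay within a 1.5-fold change in either direction for all 59 members, within a 1.2-fold change for 50, and within a 1.1-fold change for 17. In 16 of 59 members (27.1%) the genotypes did not overlap, against 23.0% of all genes tested. Summed over the members, the level was 4310, 4322, 4201, and 4120 CPM in WT replicates 1, 2, 3, and 4 and 3994, 4024, 4036, and 3944 CPM in *Hint1*-/- replicates 1, 2, 3, and 4. Each *Hint1*-/- sum lay below each WT sum. *Ccnd1* alone accounted for a large part of that gap, with 669 CPM in WT and 546 CPM in *Hint1*-/- MASMCs. In bulk RNA, fewer cells in a given phase of the cycle and less RNA per cell cannot be told apart.

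**Figure D1:**
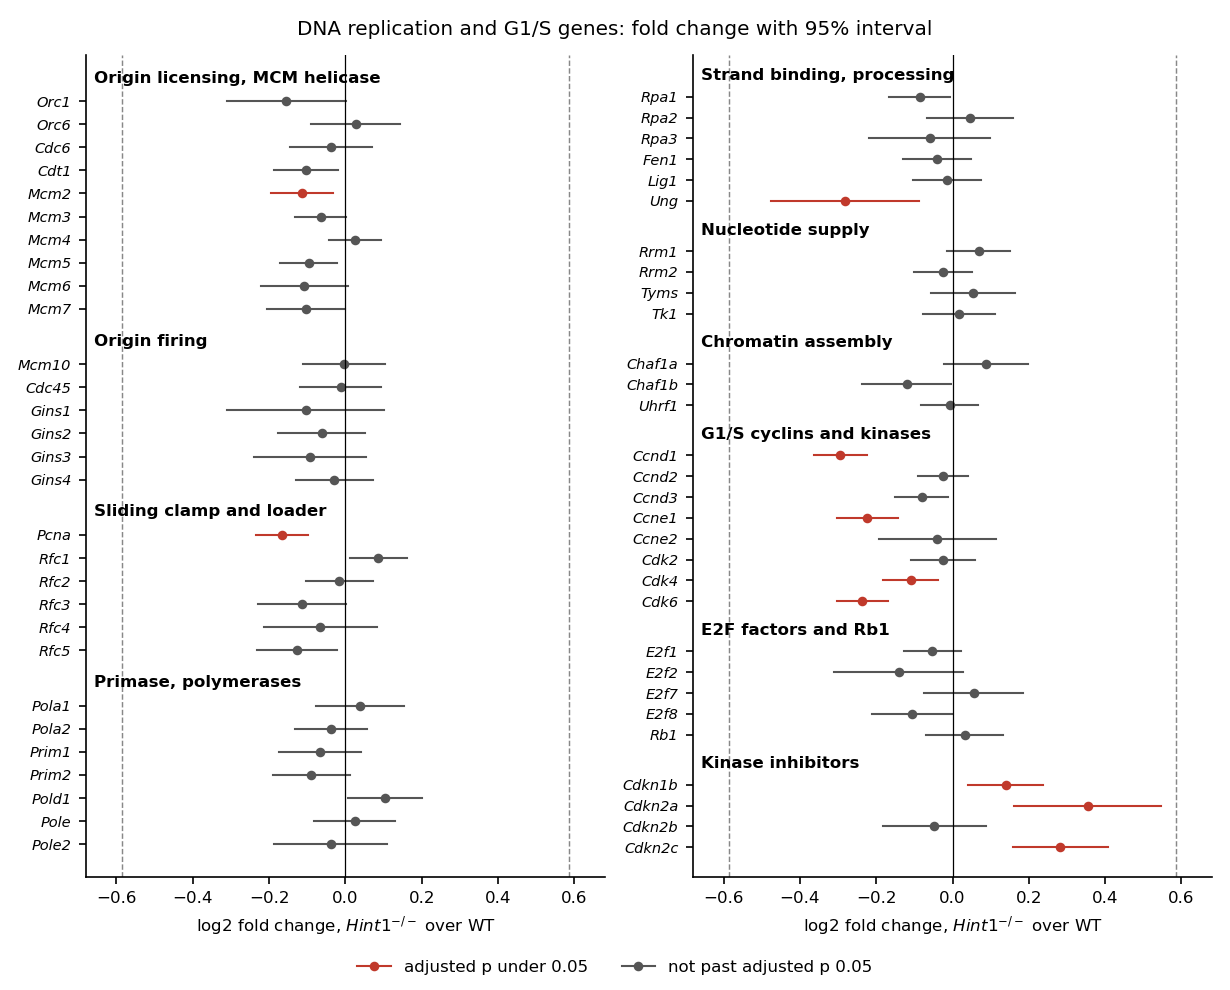
Log2 fold change of *Hint1*-/- over WT MASMCs for each of the 59 members (point) with its 95% confidence interval from edgeR's quasi-likelihood test (line), grouped by role. Dashed lines mark a 1.5-fold change in either direction; the 10 members past an adjusted p of 0.05 are red, and no interval crosses a dashed line.

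G1/S cyclins and their kinases held 4 of the 7 lower members. Of these 8 genes 4 were lower, and the estimate was below 0 for all 8, with a median log2 fold change of −0.0953. That median stayed between −0.106 and −0.070 over the 17 alternatives tried. *Ccnd1*, the D-type cyclin that responds most directly to mitogens, was at 678, 702, 656, and 639 CPM in WT replicates 1, 2, 3, and 4 and 537, 544.5, 552, and 549 CPM in *Hint1*-/- replicates 1, 2, 3, and 4. The highest *Hint1*-/- sample, at 552 CPM, was below the lowest WT sample, at 639 CPM, and the *Hint1*-/- samples lay closer together than the WT samples. *Ccnd1* had a log2 fold change of −0.29 (adjusted p = 3.23e-06, SE 0.0336), with means of 669 ± 27.3 CPM in WT and 546 ± 6.44 CPM in *Hint1*-/- MASMCs (SD, n = 4 each). Per kilobase of exon, *Ccnd1* was the most abundant of the 59 members, at 162 CPM per kb, followed by *Cdk4* at 135.5 and *Pcna* at 103.5 CPM per kb.

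*Cdk6*, a catalytic partner of the D-type cyclins, was at 87.1, 86.4, 84.7, and 85.6 CPM in WT and 73.4, 72.1, 73.7, and 72.7 CPM in *Hint1*-/- replicates 1 to 4. The genotypes were separated by a gap wider than the spread within either one. *Cdk6* had a log2 fold change of −0.24 (adjusted p = 2.44e-05, SE 0.0321), with means of 86.0 ± 1.04 CPM in WT and 72.95 ± 0.696 CPM in *Hint1*-/- MASMCs (SD, n = 4 each). *Cdk4*, the other partner, was at 289.5, 278, 294, and 294 CPM in WT and 277, 272, 268, and 254 CPM in *Hint1*-/- replicates 1 to 4. The lowest WT sample and the highest *Hint1*-/- sample were less than 1 CPM apart, and *Hint1*-/- replicate 4 was the lowest of the 8 samples. For *Cdk4* the log2 fold change was −0.11 (adjusted p = 0.0283, SE 0.0345). The call was lost without WT replicate 1, 3, or 4 (adjusted p = 0.059, 0.0929, and 0.0617) and without *Hint1*-/- replicate 3 or 4 (adjusted p = 0.0525 and 0.102) and with length and GC offsets together with a replicate block, in which the replicate number is a term of the fit (adjusted p = 0.0507), and over all 17 alternatives the adjusted p ran from 0.0123 to 0.102. *Ccne1*, a cyclin that activates CDK2 late in G1, was at 52.5, 51.7, 53.4, and 52.65 CPM in WT and 46.35, 46.3, 45.1, and 42.4 CPM in *Hint1*-/- replicates 1 to 4. All 4 *Hint1*-/- samples were below the WT range, which spanned less than 2 CPM. The log2 fold change of *Ccne1* was −0.22 (adjusted p = 0.000335, SE 0.0387), with means of 52.6 ± 0.679 CPM in WT and 45.0 ± 1.86 CPM in *Hint1*-/- MASMCs (SD, n = 4 each).

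The other 4 genes of the role did not pass the test. *Ccnd3* did not overlap between genotypes and had a log2 fold change of −0.08 (adjusted p = 0.0948, SE 0.0332). *Ccnd2*, *Ccne2*, and *Cdk2* overlapped, with log2 fold changes of −0.03, −0.04, and −0.03 and adjusted p from 0.628 to 0.761. The interval of *Ccnd2* ran from −0.09 to 0.04, so a change as large as that of *Ccnd1* lay outside it. Whether the D-type cyclins differed from each other in their response was not tested. Annotated exons of *Ccnd1*, *Cdk4*, and *Cdk6* share bases with a gene on the opposite strand, as do those of 23 members in all, and the strand setting of the authors' counting was not given in the sources used here.

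CDK inhibitors held all 3 higher members, and 3 of the 4 inhibitors on the list (75.0%) were higher, against 11.2% of all genes tested. Inhibitors outside the members went both ways, with *Cdkn2d* higher and *Cdkn1a* lower. *Cdkn1a*, at 237 CPM per kb, had means of 668.5 CPM in WT and 619.6 CPM in *Hint1*-/- MASMCs. Its log2 fold change was −0.11 (adjusted p = 0.0396, SE 0.0367), and the genotypes overlapped. *Cdkn2a*, which encodes the CDK4 and CDK6 inhibitor INK4A and, in another reading frame, the MDM2-binding protein ARF, was at 6.86, 5.81, 6.02, and 6.95 CPM in WT replicates 1, 2, 3, and 4 and 8.875, 7.59, 8.70, and 7.61 CPM in *Hint1*-/- replicates 1, 2, 3, and 4. Each *Hint1*-/- sample was above each WT sample, at 122 to 145 counts in WT and 157 to 184 counts in *Hint1*-/- samples. For *Cdkn2a* the test gave a log2 fold change of 0.35 (adjusted p = 0.00903, SE 0.0916), the largest in size among the 59 members, with an interval from 0.16 to 0.55. Counts per gene symbol do not separate the INK4A and ARF transcripts. *Cdkn2c*, an INK4 inhibitor of the same kinases, was at 17.65, 16.3, 17.4, and 15.95 CPM in WT and 20.2, 20.4, 21.9, and 19.4 CPM in *Hint1*-/- replicates 1 to 4. The highest WT sample lay below the lowest *Hint1*-/- sample. For *Cdkn2c* the log2 fold change was 0.28 (adjusted p = 0.00176, SE 0.059), with means of 16.8 ± 0.817 CPM in WT and 20.5 ± 1.03 CPM in *Hint1*-/- MASMCs (SD, n = 4 each).

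*Cdkn1b*, the CIP/KIP inhibitor of cyclin E and CDK2 that is known for holding cells in quiescence, was at 26.2, 27.6, 25.7, and 26.7 CPM in WT and 28.4, 28.4, 30.3, and 29.8 CPM in *Hint1*-/- replicates 1 to 4. The genotypes did not overlap, and the highest WT sample was less than 1 CPM below the lowest *Hint1*-/- sample. *Cdkn1b* had a log2 fold change of 0.14 (adjusted p = 0.0426, SE 0.0473). This call was lost in 13 of the 17 alternatives, among them DESeq2 (adjusted p = 0.144) and the replicate block (adjusted p = 0.0508), and the adjusted p over all 17 ran from 0.0296 to 0.144. It was lost without WT replicate 1, 3, or 4 (adjusted p = 0.093, 0.13, and 0.0626) and without *Hint1*-/- replicate 1, 2, 3, or 4 (adjusted p = 0.0518, 0.0519, 0.108, and 0.0966). *Cdkn2b*, the INK4 gene next to *Cdkn2a* on chromosome 4 and the most abundant inhibitor per kilobase of the 4, was at 32.0, 28.0, 36.0, and 34.7 CPM in WT and 33.5, 30.6, 30.0, and 32.4 CPM in *Hint1*-/- replicates 1 to 4. The *Hint1*-/- samples lay within the WT range. *Cdkn2b* had a log2 fold change of −0.05 (adjusted p = 0.659, SE 0.0643), so these neighboring genes had estimates of opposite sign, a difference that was not itself tested. Without WT replicate 3, the estimate for *Cdkn2b* was 0.002.

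**Figure D2:**
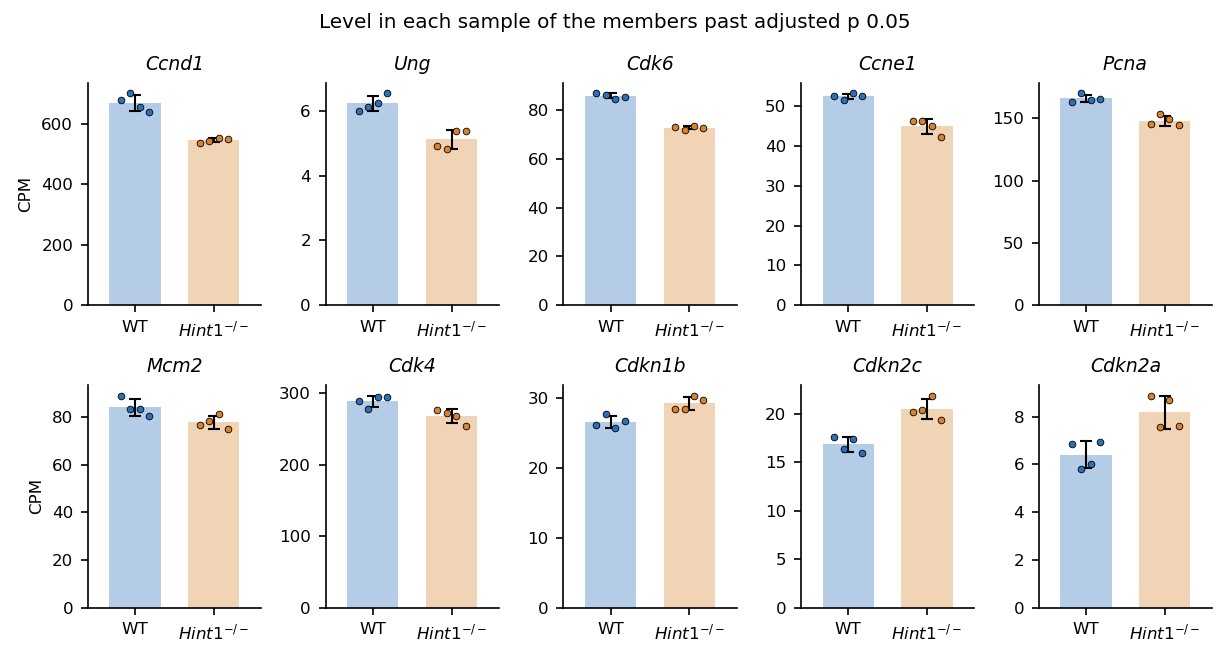
Level in CPM (vertical axes, starting at 0) of the 10 members past an adjusted p of 0.05 in each WT and *Hint1*-/- sample (points in the order of replicates 1 to 4), with the mean (bar) and SD (error bar, n = 4). *Mcm2* is the 1 gene of the 10 in which the genotypes overlap.

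The E2F factors among the members and *Rb1*, the switch on which these kinases act, did not pass the test. Of 5 genes, 0 passed in edgeR, DESeq2, or limma-voom, and 1, *E2f8*, had an unadjusted p under 0.05 with a log2 fold change of −0.11 and an adjusted p of 0.143. *E2f1*, an activator and the most abundant of the 5 per kilobase, was at 58.75, 58.3, 60.6, and 57.1 CPM in WT and 57.5, 54.95, 56.7, and 57.1 CPM in *Hint1*-/- replicates 1 to 4. WT and *Hint1*-/- samples overlapped. *E2f1* had a log2 fold change of −0.05 (adjusted p = 0.327, SE 0.0355). *Rb1* had an estimate of 0.03, the activator *E2f2* of −0.14, and the repressor *E2f7* of 0.06, with adjusted p of 0.697, 0.24, and 0.58. Among E2F factors outside the members, *E2f6* was lower without overlap, at a log2 fold change of −0.19 (adjusted p = 0.00391, SE 0.0433). *E2f3*, *E2f4*, and *E2f5* did not pass.

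Origin licensing genes, which load the MCM helicase onto DNA in G1, held 1 lower gene of 10, with a median log2 fold change of −0.0992. *Mcm2*, a subunit of that helicase, was at 89.2, 83.6, 83.4, and 80.7 CPM in WT and 76.6, 78.5, 81.4, and 75.0 CPM in *Hint1*-/- replicates 1 to 4. *Hint1*-/- replicate 3 lay above WT replicate 4, so the genotypes overlapped. *Mcm2* had a log2 fold change of −0.11 (adjusted p = 0.0447, SE 0.0387), with means of 84.2 ± 3.56 CPM in WT and 77.9 ± 2.76 CPM in *Hint1*-/- MASMCs (SD, n = 4 each). Its call was lost in 8 of the 17 alternatives, including DESeq2 (adjusted p = 0.0734), no filter on low counts (adjusted p = 0.0514), and the fits without WT replicate 1, 2, or 3 (adjusted p = 0.157, 0.0543, and 0.0787) and without *Hint1*-/- replicate 1, 2, or 4 (adjusted p = 0.109, 0.0782, and 0.133), with a range from 0.0193 to 0.157 over all 17.

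*Mcm3*, the most abundant of the licensing genes per kilobase at 31.3 CPM per kb, was at 97.4, 98.45, 94.7, and 97.6 CPM in WT and 94.3, 92.8, 92.5, and 91.7 CPM in *Hint1*-/- replicates 1 to 4. The genotypes did not overlap, yet the gap was narrow, between 94.3 CPM in *Hint1*-/- replicate 1 and 94.7 CPM in WT replicate 3. *Mcm3* had a log2 fold change of −0.06 (adjusted p = 0.171, SE 0.0319). The other helicase subunits had estimates of 0.03 (*Mcm4*), −0.10 (*Mcm5*), −0.11 (*Mcm6*), and −0.10 (*Mcm7*), with adjusted p of 0.637, 0.0633, 0.175, and 0.148. *Mcm5* passed, as lower, in 5 of the 17 alternatives: with upper-quartile factors (adjusted p = 0.0447), with length and GC offsets without and with the replicate block (0.0371 and 0.0313), without WT replicate 2 (0.0353), and without *Hint1*-/- replicate 3 (0.0262), with a range from 0.0262 to 0.159. *Mcm6* passed, as lower, in 3, with the replicate block (adjusted p = 0.0233), with the block and length and GC offsets (0.00333), and without WT replicate 4 (0.0241), with a range from 0.00333 to 0.454. The loader *Cdt1* (−0.10, adjusted p = 0.0735) and the origin recognition subunit *Orc1* (−0.15, adjusted p = 0.157) did not overlap between genotypes and did not pass the test. *Cdc6* and *Orc6* overlapped, at −0.04 and 0.03.

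Genes of helicase activation and origin firing had 0 of 6 past the test in edgeR, DESeq2, or limma-voom, and 0 at an unadjusted p under 0.05. *Gins4*, a subunit of the GINS complex and the most abundant of the 6 per kilobase, was at 30.7, 31.2, 30.55, and 32.1 CPM in WT and 29.9, 29.3, 33.1, and 29.8 CPM in *Hint1*-/- replicates 1 to 4. *Hint1*-/- replicate 3 was the highest of the 8 samples, and the other 3 *Hint1*-/- samples were below the WT range. *Gins4* had a log2 fold change of −0.03 (adjusted p = 0.73, SE 0.048). *Mcm10*, *Cdc45*, *Gins1*, *Gins2*, and *Gins3* had estimates from −0.10 (*Gins1*) to −0.0039 (*Mcm10*), with adjusted p from 0.392 to 0.97. Their levels overlapped between genotypes.

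The sliding clamp gene *Pcna*, whose ring tethers polymerases to DNA, was at 163, 170.3, 165, and 166 CPM in WT replicates 1, 2, 3, and 4 and 145, 153, 149, and 144 CPM in *Hint1*-/- replicates 1, 2, 3, and 4. The highest *Hint1*-/- sample, at 153 CPM, lay below the lowest WT sample, at 163 CPM. The log2 fold change of *Pcna* was −0.17 (adjusted p = 0.000934, SE 0.0322), with means of 166 ± 2.94 CPM in WT and 148 ± 3.93 CPM in *Hint1*-/- MASMCs (SD, n = 4 each), and the call held in all 17 alternatives. Processed pseudogenes of *Pcna* are annotated, and reads shared with them could have been divided. Of the 5 clamp loader genes, 0 passed in edgeR, DESeq2, or limma-voom, and 2 (*Rfc1* and *Rfc5*) had an unadjusted p under 0.05. *Rfc1* had no overlap between genotypes at an estimate of 0.09 (adjusted p = 0.098), nor did *Rfc3* and *Rfc5* at −0.11 and −0.13 (adjusted p = 0.161 and 0.0822). *Rfc2* and *Rfc4* overlapped, at −0.02 and −0.07.

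Primase and replicative polymerase genes had 0 of 7 past the test in edgeR, DESeq2, or limma-voom. At an unadjusted p under 0.05 there was 1, *Pold1*, the catalytic subunit of polymerase delta, with a log2 fold change of 0.10 (adjusted p = 0.12, SE 0.0459). *Prim2*, the large primase subunit and the most abundant of the 7 per kilobase, was at 38.6, 39.0, 35.9, and 35.55 CPM in WT and 33.1, 37.1, 35.8, and 34.1 CPM in *Hint1*-/- replicates 1 to 4. *Hint1*-/- replicates 2 and 3 lay inside the WT range and *Hint1*-/- replicates 1 and 4 below it. *Prim2* had a log2 fold change of −0.09 (adjusted p = 0.21, SE 0.048). *Pola1*, *Pola2*, *Prim1*, *Pole*, and *Pole2* had estimates of 0.04, −0.04, −0.07, 0.02, and −0.04, with adjusted p from 0.392 to 0.797.

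Among genes for single-stranded DNA binding and strand processing, 1 of 6 was lower. *Ung*, the uracil-DNA glycosylase that removes misincorporated uracil behind the fork, was at 5.995, 6.15, 6.26, and 6.56 CPM in WT and 4.92, 4.83, 5.385, and 5.39 CPM in *Hint1*-/- replicates 1 to 4. WT samples held 125 to 137 counts and *Hint1*-/- samples 100 to 112 counts, with no overlap. *Ung* had a log2 fold change of −0.28 (adjusted p = 0.0348, SE 0.0919). At this depth the interval was wide, from −0.47 to −0.09. The call was lost in DESeq2 (adjusted p = 0.148) and without WT replicate 2, 3, or 4 (adjusted p = 0.05, 0.0719, and 0.0862) and without *Hint1*-/- replicate 1 or 2 (adjusted p = 0.0831 and 0.0892), with a range from 0.0288 to 0.148 over the 17 alternatives. *Rpa1*, the large subunit of the single-strand binding complex, was at 106, 109, 102, and 101 CPM in WT and 95.2, 97.05, 104, and 96.6 CPM in *Hint1*-/- replicates 1 to 4. *Hint1*-/- replicate 3 lay within the WT range, and the other 3 *Hint1*-/- samples were below it. *Rpa1* had a log2 fold change of −0.09 (adjusted p = 0.121, SE 0.038) and passed the test without *Hint1*-/- replicate 3 (adjusted p = 0.0402) and with length and GC offsets without and with the replicate block (adjusted p = 0.0346 and 0.0231), with a range from 0.0231 to 0.277. *Rpa2*, *Rpa3*, *Fen1*, and *Lig1* had estimates of 0.05, −0.06, −0.04, and −0.01.

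Nucleotide supply genes had 0 of 4 past the test in edgeR, DESeq2, or limma-voom, and 0 at an unadjusted p under 0.05. *Rrm2*, the small subunit of ribonucleotide reductase and the most abundant of the 4 at 58.15 CPM per kb, was at 133, 134, 126, and 122 CPM in WT and 130.4, 126, 125, and 124 CPM in *Hint1*-/- replicates 1 to 4. Every *Hint1*-/- sample fell inside the WT range. *Rrm2* had a log2 fold change of −0.03 (adjusted p = 0.677, SE 0.0359) with an interval from −0.10 to 0.05. The large subunit *Rrm1* had an estimate of 0.07, thymidylate synthase *Tyms* of 0.05, and thymidine kinase *Tk1* of 0.02, with adjusted p of 0.245, 0.517, and 0.834.

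Replication-coupled chromatin genes had 0 of 3 past the test in edgeR, DESeq2, or limma-voom, and 1 (*Chaf1b*) at an unadjusted p under 0.05. *Uhrf1*, which brings DNA methyltransferase to hemimethylated DNA, was at 78.5, 77.9, 74.0, and 74.8 CPM in WT and 77.1, 72.8, 77.2, and 76.6 CPM in *Hint1*-/- replicates 1 to 4. The genotypes covered nearly the same range, and *Hint1*-/- replicate 2 was the lowest of the 8 samples. *Uhrf1* had a log2 fold change of −0.01 (adjusted p = 0.915, SE 0.0356). The histone chaperone subunits *Chaf1a* and *Chaf1b* had estimates of opposite sign, 0.09 (adjusted p = 0.267) and −0.12 (adjusted p = 0.139). *Chaf1b* passed, as lower, without WT replicate 4 (adjusted p = 0.0476), with a range from 0.0476 to 0.318 over the 17 alternatives.

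Other genes of the same pathways came from 3 further lists. Of 39 other replication genes, 1 (*Top2a*) was higher and 2 (*Rnaseh2a* and *Pold4*) were lower, with a median log2 fold change of −0.0247. The higher count was 0 without WT replicate 1 or 4 or *Hint1*-/- replicate 2 and 2 without WT replicate 2, and the lower count was 0 without WT replicate 1 or *Hint1*-/- replicate 3 and 1 without WT replicate 3 or 4 or *Hint1*-/- replicate 2 or 4. It was also 1 in DESeq2 and with length and GC offsets, where *Rnaseh2a* passed and *Pold4* did not. The lower count rose to 3 without WT replicate 2 or *Hint1*-/- replicate 1. Of 12 other nucleotide metabolism genes, 0 were higher and 4 (33.3%) were lower, against 10.2% lower over all genes tested. Their median log2 fold change was −0.0614. Over the 17 alternatives 2 to 4 of the 12 were lower and 0 were higher. Of 26 other G1/S genes, 25 were tested, and *Cdkn1c*, with a mean of 4.75 counts, did not pass the filter. Of those tested, 4 were higher (*Cdkn2d*, *Cks2*, *Lin54*, and *Myc*) and 4 were lower (*Cdkn1a*, *E2f6*, *Mybl2*, and *Mycn*). The higher count was 2 without WT replicate 4 or *Hint1*-/- replicate 1, and the lower count was 2 without WT replicate 3 or *Hint1*-/- replicate 4. With length and GC offsets 4 were higher and 6 lower, and with the replicate block added 5 were higher and 6 lower.

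The largest changes among these other genes, by the rule for named genes, were in *Cdkn2d*, *Cks2*, and *Lin54* upward and in *Mycn*, *Rnaseh2a*, and *Umps* downward. *Cdkn2d*, a further INK4 inhibitor, was at 20.1, 18.8, 19.0, and 20.3 CPM in WT and 22.4, 23.0, 23.7, and 21.7 CPM in *Hint1*-/- replicates 1 to 4. No sample of one genotype reached the range of the other, and *Cdkn2d* had a log2 fold change of 0.21 (adjusted p = 0.00741, SE 0.054). *Cks2*, a small subunit of CDK complexes, was at 26.0, 24.6, 23.05, and 22.3 CPM in WT and 29.4, 26.8, 25.5, and 29.0 CPM in *Hint1*-/- replicates 1 to 4. WT replicate 1 lay above *Hint1*-/- replicate 3. *Cks2* had a log2 fold change of 0.21 (adjusted p = 0.0195, SE 0.0603), and its call was lost without WT replicate 3 or 4 (adjusted p = 0.0669 and 0.0573) and without *Hint1*-/- replicate 1 or 4 (adjusted p = 0.0712 and 0.067), with a range from 0.0032 to 0.0712. *Lin54*, the DNA-binding subunit of the DREAM and MuvB complexes, was at 24.6, 27.8, 26.4, and 25.0 CPM in WT and 30.9, 28.8, 30.05, and 27.7 CPM in *Hint1*-/- replicates 1 to 4. WT replicate 2 and *Hint1*-/- replicate 4 overlapped. The log2 fold change of *Lin54* was 0.18 (adjusted p = 0.0213, SE 0.0529), and the call was lost in DESeq2 (adjusted p = 0.0556) and without WT replicate 1 or 4 (adjusted p = 0.0731 and 0.0531) and without *Hint1*-/- replicate 1 or 3 (adjusted p = 0.0762 and 0.0542), with a range from 0.00808 to 0.0762.

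*Mycn*, a MYC family factor, was at 127, 121, 127, and 144 CPM in WT and 102, 110.4, 118, and 107 CPM in *Hint1*-/- replicates 1 to 4. WT replicate 4 stood above the other WT samples, and all *Hint1*-/- samples were below the WT range. *Mycn* had a log2 fold change of −0.24 (adjusted p = 0.00158, SE 0.0503). *Myc*, of the same family, was higher without overlap, at a log2 fold change of 0.16 (adjusted p = 0.00377, SE 0.0365). *Rnaseh2a*, the catalytic subunit of the enzyme that removes ribonucleotides from DNA, was at 21.4, 20.3, 19.0, and 21.2 CPM in WT and 18.1, 17.8, 16.4, and 18.5 CPM in *Hint1*-/- replicates 1 to 4. The genotypes did not overlap, at a log2 fold change of −0.21 (adjusted p = 0.0169, SE 0.0597), and the call was lost without WT replicate 1 (adjusted p = 0.0557) and without *Hint1*-/- replicate 3 (adjusted p = 0.0601), with a range from 0.00746 to 0.0601. *Umps*, which makes uridine monophosphate, was at 66.0, 60.6, 61.25, and 58.6 CPM in WT and 54.65, 51.95, 54.9, and 51.8 CPM in *Hint1*-/- replicates 1 to 4. All *Hint1*-/- samples were below the WT samples, at a log2 fold change of −0.21 (adjusted p = 0.00112, SE 0.0412).

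Mitosis and G2/M genes, the later steps of the cycle, are given for comparison. Of 30 such genes, 28 (93.3%) were higher and 0 were lower in edgeR, against 11.2% and 10.2% of all genes tested. *Kif23* and *Birc5* did not pass the test. This list, like the others, was chosen with earlier results of these data known. No gene of the 30 was lower in DESeq2, in limma-voom, or at an unadjusted p under 0.05. Their median log2 fold change was 0.195, compared with −0.041 for the 59 members, and DESeq2 and limma-voom called 20 and 27 of the 30. *Cenpf*, a kinetochore protein gene, was at 36.6, 42.9, 36.8, and 40.3 CPM in WT and 52.8, 54.8, 46.9, and 53.1 CPM in *Hint1*-/- replicates 1 to 4. All *Hint1*-/- samples lay above the WT samples, at a log2 fold change of 0.41 (adjusted p = 2.38e-05, SE 0.0547). The spindle and cytokinesis genes *Hmmr* and *Anln*, at 64.65, 69.05, 64.2, and 60.85 CPM in WT and 79.2, 85.2, 78.5, and 79.2 CPM in *Hint1*-/- replicates 1 to 4 and at 126, 136, 125, and 123 CPM in WT and 161, 162, 152, and 155 CPM in *Hint1*-/- replicates 1 to 4, likewise did not overlap. Their log2 fold changes were 0.32 (adjusted p = 1.71e-05, SE 0.0415) and 0.30 (adjusted p = 8.05e-06, SE 0.0375). Summed over the 30 genes, the level was 1761, 1840, 1778, and 1739 CPM in WT and 2072, 2107, 2024, and 2048 CPM in *Hint1*-/- replicates 1 to 4. No test of the difference between the lists was made.

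**Figure D3:**
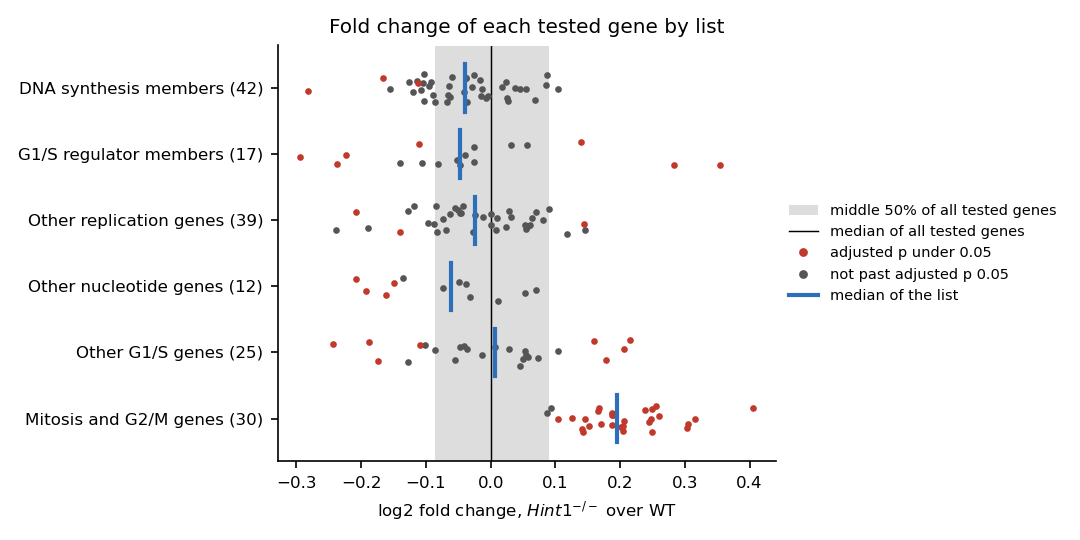
Log2 fold change of *Hint1*-/- over WT MASMCs (horizontal axis) for each tested gene of the members, split into 42 DNA synthesis genes and 17 G1/S regulators, and of 4 other lists; points are genes, spread vertically at random, and blue lines are list medians. The gray band holds the middle 50% of all tested genes, from −0.0855 to 0.0906; the mitosis and G2/M median of 0.195 lies to its right and the medians of the other lists lie inside it.

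Markers of cell types moved with genotype as well. Of 10 smooth muscle markers, 9 were tested, 6 were lower and 1 (*Smtn*) was higher. Among the lower were *Acta2* (826 and 578 CPM in WT and *Hint1*-/-) and *Myh11* (20.4 and 6.98 CPM). The log2 fold changes of the 9 ran from −1.544 to 0.249, with 2 above 0. *Myocd*, with a mean of 9.75 counts, did not pass the filter. The summed level of the 10 markers was 2675, 2523, 2594, and 2638 CPM in WT and 2385, 2423, 2338, and 2331 CPM in *Hint1*-/- replicates 1 to 4, and *Acta2* was the most abundant at 345 CPM per kb. Macrophage markers were abundant in all 8 samples and lower in *Hint1*-/- samples for 5 of 6 genes, with *Itgam* not past the test. Their summed level was 2072, 2196, 2137, and 2380 CPM in WT and 1700, 1817, 1793, and 1734 CPM in *Hint1*-/- replicates 1 to 4. The most abundant, *Lyz2*, stood at 824 CPM per kb, above *Acta2*, and none of the 6 was at 0. Whether the macrophage share had a part in the lower *Ccnd1*, *Cdk6*, *Ccne1*, *Cdk4*, *Pcna*, *Ung*, and *Mcm2* was not tested.

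Fibroblast markers were 3 higher and 2 lower of 6, with summed levels of 5466, 5057, 5243, and 4979 CPM in WT and 5824, 5713, 5515, and 5906 CPM in *Hint1*-/- replicates 1 to 4, and *Dcn* was the most abundant per kilobase. Glial markers were lower in all 6 genes, with summed levels of 52.8, 52.0, 51.8, and 46.2 CPM in WT and 12.9, 11.0, 11.9, and 11.0 CPM in *Hint1*-/- replicates 1 to 4 and *Ngfr* the most abundant per kilobase. Endothelial markers were low, with 5 of 7 tested, 0 past the test in edgeR, DESeq2, or limma-voom, 1 lower at an unadjusted p under 0.05, and summed levels of 7.15, 5.53, 8.08, and 6.80 CPM in WT and 5.64, 7.49, 5.19, and 5.635 CPM in *Hint1*-/- replicates 1 to 4, *Emcn* being the most abundant per kilobase. Cardiac markers had 5 of 8 tested and 4 higher at low counts, with summed levels of 2.40, 2.72, 2.10, and 2.83 CPM in WT and 8.63, 9.47, 10.8, and 6.89 CPM in *Hint1*-/- replicates 1 to 4, *Tnnt2* being the most abundant per kilobase and *Myl7* at 0 in the 4 WT samples. The part of these lists in the members' changes was not tested.

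Promoter sequence, which played no part in the choice of members, was read in windows from 250 bases before to 50 bases after each start in RefSeq (GRCm38.p6). Windows were found for 48 of the 59 members, not for *Ccnd1*, *Ccnd2*, *Ccne2*, *Gins1*, *Gins2*, *Gins4*, *Mcm4*, *Pole*, *Prim2*, *Rb1*, and *Rfc2*. An E2F motif (TTTCCCGC, TTTCGCGC, TTTGCCGC, or TTTGGCGC on either strand) occurred in 18 of 48 members (37.5%), in 704 of 27025 genes with a window (2.60%), and in 490 of 10767 tested genes (4.55%). The CHR element of late cell cycle genes (TTTGAA or TTCGAA, either strand) occurred in 9 of 48 members (18.8%) and 16.8% of tested genes, and the CCAAT box (CCAAT, either strand) in 30 of 48 (62.5%) and 43.2%. The mitosis and G2/M genes had an E2F motif in 1 of 25 (4%) and a CHR element and a CCAAT box each in 21 of 25 (84%). Shares were not adjusted for base composition, and a match describes letters in a window, not binding.

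The median was nearly the same in members with and without an E2F motif, a comparison made without a test. The 18 with a match had a median log2 fold change of −0.0512, with 1 higher at an adjusted p under 0.05, and the 30 without a match had a median of −0.0502, with 2 higher and 6 lower. *Cdkn2a* was the 1 member with a match among the 9 past the test that had a window. Both *Cdkn2a* and *Uhrf1* had 2 windows, at different starts, and in each gene the match was in 1 of the 2, from which the stretch is taken. In *Cdkn2a* that window was at the 5′ end of the gene (chr4:89294570-89294869), and the window further into the gene (chr4:89282143-89282442) held 0 matches. The 2 windows were not assigned to the INK4A or ARF transcript. Stretches of 100 bases from 5 of the members with a match upstream of the start are shown as examples of the motif. They are read 5′ to 3′ along the gene, at chr8:75109312-75109411 (plus strand) for *Mcm5*, chr1:128359730-128359829 (minus strand) for *Mcm6*, chr11:98907967-98908066 (plus strand) for *Cdc6*, chr17:56304082-56304181 (plus strand) for *Uhrf1*, and chr4:89294665-89294764 (minus strand) for *Cdkn2a*. Capitals mark E2F motif matches, and in *Mcm5* and *Mcm6* a match on each strand overlaps to form a longer run.
Mcm5: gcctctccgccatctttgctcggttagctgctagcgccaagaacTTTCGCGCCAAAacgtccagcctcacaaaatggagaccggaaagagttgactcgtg
Mcm6: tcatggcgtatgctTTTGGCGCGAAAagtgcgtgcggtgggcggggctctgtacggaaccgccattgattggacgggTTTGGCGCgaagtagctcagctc
Cdc6: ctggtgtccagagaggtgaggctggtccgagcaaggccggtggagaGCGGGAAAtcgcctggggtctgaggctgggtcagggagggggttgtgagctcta
Uhrf1: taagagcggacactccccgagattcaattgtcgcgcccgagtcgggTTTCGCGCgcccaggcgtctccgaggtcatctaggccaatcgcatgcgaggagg
Cdkn2a: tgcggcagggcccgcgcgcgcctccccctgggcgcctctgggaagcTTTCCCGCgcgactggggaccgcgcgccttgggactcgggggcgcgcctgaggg
*Mcm5*, *Mcm6*, *Cdc6*, and *Uhrf1* did not pass the test between genotypes, and *Cdkn2a* was higher in *Hint1*-/- MASMCs.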

How the data were processed

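MASMCs of 2 genotypes (4 samples each) were sequenced as mRNA, and the authors supplied 1 estimated count per sample for 18533 gene symbols, not normalized. The sources differ on how these were made: the study's methods name HISAT2, and the submitters' processing notes name Bowtie2 and RSEM 1.3.1, both with the mm10 build and DESeq2 1.4.5. The gene annotation and strand setting were not given in the sources used here, and shared reads may have been divided between genes. The deposited estimated counts were rounded to whole numbers. Genes were filtered with filterByExpr, scaled by TMM, and tested two-sided with edgeR 4.0.16 (glmQLFit and glmQLFTest, genotype as the only term) in R 4.3.3, with Benjamini-Hochberg adjustment over all 13535 genes tested. A prior count of 2 entered only log CPM values, used for the correlations between samples and the length and GC trends. Standard errors are the log2 fold change divided by the square root of F. The steps were checked on simulated counts.

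The members and lists were chosen with earlier results of these data known. Values in every sample are given for *Hint1*, for members past adjusted p 0.05 (up to 20 by size of change), for the most abundant member per kilobase of exon in each role, and for the 3 largest changes in each direction among other pathway genes and among mitosis genes past adjusted p 0.05. Exon lengths and positions came from GENCODE M21 (GRCm38, the mm10 build), which gave a position for 17733 symbols (95.7%), and promoter windows from RefSeq. Alternatives were other size factors, other filters, DESeq2 1.42.0, limma-voom (limma 3.58.1), length and GC offsets by loess with a span of 0.3, the replicate number as a block, a stricter threshold, and each sample left out in turn. Figures were drawn with Python 3.11.15. Intervals cover the spread between samples only.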

Additional observations from a re-analysis of the deposited data

Results flagged for a closer look

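A single sample stood far from the other 3 of its genotype in 7 of 110 groups of 4 samples examined, where chance gives about 1 in 20, or 5.5. The measure is the gap to the nearest other sample as a share of the group's range. *Hint1*-/- replicate 3 was high for *Gins4* (at 33.1 against 29.3 to 29.9 CPM, gap share 0.85) and for the summed strand processing genes (at 235.5 against 222.5 to 224 CPM, gap share 0.908). *Hint1*-/- replicate 2 was low for *Uhrf1* (at 72.8 against 76.6 to 77.2 CPM, gap share 0.854) and high for *Hmmr* (at 85.2 against 78.5 to 79.2 CPM, gap share 0.886). *Hint1*-/- replicate 4 was low for the summed DNA synthesis members (at 2009 against 2068 to 2080 CPM, gap share 0.831) and for the summed other pathway genes (at 4161 against 4261 to 4281 CPM, gap share 0.833). WT replicate 4 was low for the summed glial markers (at 46.2 against 51.8 to 52.8 CPM, gap share 0.843).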

How the results depend on the processing

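The log2 fold changes of *Hint1*, *Ccnd1*, *Cdk6*, *Ccne1*, *Pcna*, *Cdkn2a*, *Cdkn2c*, *Cdkn2d*, *Mycn*, *Umps*, *Cenpf*, *Hmmr*, and *Anln* kept their direction and their side of the threshold in all 17 alternatives. All 10 members past adjusted p 0.05 kept their direction in each alternative, and 6 to 10 of the 10 stayed past it. Calls for *Cdkn1b*, *Mcm2*, *Cdk4*, *Ung*, *Cks2*, *Lin54*, and *Rnaseh2a* were lost in some. At an adjusted p under 0.01, the members lower numbered 4 and all genes past the threshold 1720, by construction fewer. With single samples left out, the genes past both thresholds ranged from 350 to 390, the genes past adjusted p from 2258 to 2909, the members higher from 2 to 3, the members lower from 4 (without WT replicate 3) to 8, and the log2 fold change of *Hint1* from −1.664 to −1.623; the count of members past both thresholds stayed at 0 in edgeR, and DESeq2 and limma-voom also gave 0. Apart from the smaller number of samples, the cause was not tested. Among the genes given with values in every sample, signs turned for 3, which passed in no alternative; signs of the other genes were not compared one by one. *Gins4* was at 0.006 with length and GC offsets, with and without the block. *Uhrf1* was at 0.006, 0.003, and 0.013 without WT replicate 1, WT replicate 2, and *Hint1*-/- replicate 2 (−0.022 to 0.013 over single samples left out), and *Cdkn2b* was at 0.002 without WT replicate 3 (−0.115 to 0.002). The cause was not tested. The median of the members stayed between −0.056 and −0.035, while that of all genes moved between −0.0106 and 0.006. With the replicate number as a block (replicate block), 382 genes passed both thresholds, 3082 passed adjusted p, and 2 members were higher and 8 lower. With the replicate block and length and GC offsets together, these were 383, 3199, 2, and 9. Across genes, same-numbered samples of the genotypes correlated at 0.183, 0.136, −0.0492, and 0.063, and *Hint1*-/- replicate 1 correlated more with WT replicate 3 (0.198), so the numbers were not read as pairs. At 118.5 counts per sample, as for *Ung*, the standard error was 0.0919, and at 12650 counts, as for *Ccnd1*, it was 0.0336, so depth limits the rarer members.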
